A study of Mus musculus with 8 samples.

Results

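The microRNAs (miRNAs) miR-148a, miR-148b and miR-152 form a family that shares its seed, the stretch at the start of a miRNA that pairs with target messenger RNAs. They were picked by their array names mmu-miR-148a, mmu-miR-148b and mmu-miR-152 as 3 of the 611 mouse miRNAs on the array, and all 3 were above background on all 8 arrays, so all 3 were among the 222 miRNAs tested. The study measured kidneys of ICR mice, an outbred stock, by Agilent 1-colour miRNA array. Every mouse had had the ureter of 1 kidney tied off for 7 days. The obstructed kidneys made up the UUO group (unilateral ureteral obstruction, 4 arrays), and contralateral kidneys without obstruction made up the control group (4 arrays). The labels do not say whether a UUO kidney and a control kidney came from the same mouse, so the groups were compared without pairing. A control kidney is therefore the unobstructed organ of an operated mouse and not a kidney of an unoperated one, and the labels give neither age nor sex. Per the labels' protocols, 100 ng of total RNA was labelled with Cy3 for each array.

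DNA methyltransferase 1, the product of Dnmt1, copies methyl groups onto the new strand of DNA after replication and so keeps methylation patterns through cell division. miRNAs of the miR-148/152 family are known to pair with the Dnmt1 messenger RNA and to lower its protein, as described in human tumour cells and in mouse and human T lymphocytes. In mouse and human kidney, Dnmt1 is known for methylating Rasal1, a brake on Ras signalling, in the fibroblasts of fibrotic tissue. These arrays hold miRNA probes, so messenger RNA or protein of Dnmt1 was not analysed here.

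The mature sequences, from RefSeq on GRCm38.p6, are shown because the family is defined by them and because they differ at so few bases. Capitals mark the seed, bases 2 to 8 counted from the 5′ end.
miR-148a: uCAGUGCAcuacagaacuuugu
miR-148b: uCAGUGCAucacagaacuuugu
miR-152: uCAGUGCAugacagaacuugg
The seed pairs with the letters UGCACUG in a target. Of 1738 mature mouse miRNAs in the RefSeq table, only these 3 carry this seed. From miR-148a to miR-148b the changes are C9U and U10C, from miR-148a to miR-152 they are C9U, U10G and U20G, and from miR-148b to miR-152 they are C10G and U20G (positions from the 5′ end of the mature strand). The files do not give probe sequences, so how far a probe for one member also binds the others was not tested.

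The 3 precursors lie on different chromosomes. Mir148a is at chr6:51269812-51269910 on the minus strand, Mir148b at chr15:103285125-103285221 on the plus strand and Mir152 at chr11:96850393-96850465 on the plus strand (GRCm38.p6, RefSeq). Mir148b lies within Copz1 and Mir152 within Copz2, genes of paired coatomer subunits that coat transport vesicles, each on the same strand as its host. Mir148a lies within the span of Gm38821, a predicted gene. The hairpins are shown with the measured 3p arm in capitals, to place it beside the loop and the other arm.
Mir148a hairpin: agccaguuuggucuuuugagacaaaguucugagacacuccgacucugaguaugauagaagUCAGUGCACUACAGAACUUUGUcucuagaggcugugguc
Mir148b hairpin: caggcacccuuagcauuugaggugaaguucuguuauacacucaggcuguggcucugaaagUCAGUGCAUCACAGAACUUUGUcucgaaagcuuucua
Mir152 hairpin: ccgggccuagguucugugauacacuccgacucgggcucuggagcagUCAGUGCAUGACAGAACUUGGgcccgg

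Signal differed between arrays before any scaling. Over the 371 probes that every array detected above background, the 75th percentile of signal was 689, 514, 1403 and 1595 on UUO arrays 1 to 4, against 513, 417, 552 and 582 on control arrays 1 to 4. Levels below are therefore scaled signals, meaning that the summed signal of a miRNA's probes was divided by that percentile, so a change is measured against that array's own bright miRNAs. The array of UUO kidney 2 stood apart from its group, with a mean correlation across miRNAs of 0.887 with the other UUO arrays and 0.964 with the control arrays. Whether the label of that array is right was not tested, it was kept in its labelled group, and every mean over 4 UUO kidneys includes it. Changes of the members and of the miRNAs named beside them are also given without it. The array was singled out on its values, so a call made without it is no independent evidence.

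Kidney tubule markers were above background on all 8 arrays (6 of 6 listed miRNAs, among them miR-192 and miR-194). The liver marker miR-122, the neuronal marker miR-124 and the pancreatic markers miR-216a and miR-217 were above background on none. The third pancreatic marker, miR-375, was above background on 3 UUO and 2 control arrays, and miR-9, which is rich in brain, and miR-1 of striated muscle were detected at low levels on all 8. The striated muscle markers miR-133a and miR-206 were each above background on 1 UUO array and 0 control arrays.

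miR-148a had the widest spread of the 3 members in obstructed kidneys. Its summed processed signal was 315, 88.3, 460 and 483 on UUO arrays 1 to 4, against 122, 88.6, 131 and 111 on control arrays 1 to 4. After scaling its level was 0.457, 0.172, 0.328 and 0.303 in UUO kidneys, against 0.238, 0.212, 0.236 and 0.190 in control kidneys. UUO kidneys 1, 3 and 4 lay above all 4 control kidneys and UUO kidney 2 lay below all of them. UUO kidneys 1, 3 and 4 were above all control kidneys for 53 of the 222 tested miRNAs (23.9%). The mean log2 level was -1.75 ± 0.59 in UUO kidneys and -2.20 ± 0.15 in control kidneys (SD, n = 4 each). The difference of 0.44 ± 0.28 (SE) on the log2 scale, or 1.36-fold, did not pass the test (limma, Benjamini-Hochberg adjusted p = 0.279 over the 222 miRNAs), and its 95% interval ran from -0.21 to 1.10. Of the 222 miRNAs tested, 33 (14.9%) were called in that comparison, 3 higher (1.35%) and 30 lower (13.5%). That count moved between 0 and 113 when 1 array was left out.

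Without UUO kidney 2, miR-148a rose 1.63-fold, a log2 difference of 0.71 ± 0.17 (SE, n = 3 and 4, limma adjusted p = 0.0127), with a 95% interval from 0.30 to 1.12. In the same 7 arrays 113 of 222 miRNAs (50.9%) were called, 46 of them higher (20.7%) and 67 lower (30.2%). UUO kidney 1 alone lay 1.07 above the control mean on the log2 scale, UUO kidney 3 lay 0.59 and UUO kidney 4 lay 0.47 above it, and UUO kidney 2 was at -0.35. Without UUO kidney 1 the difference was 0.24, with a limma adjusted p of 0.567. Within slide row 1 (UUO and control kidneys 1 and 2) the difference was 0.32 and within slide row 2 (kidneys 3 and 4) it was 0.57, with limma adjusted p-values of 0.957 and 0.0929. In whole tissue, more cells that hold a miRNA and more of it per cell cannot be told apart.

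**Figure D1:**
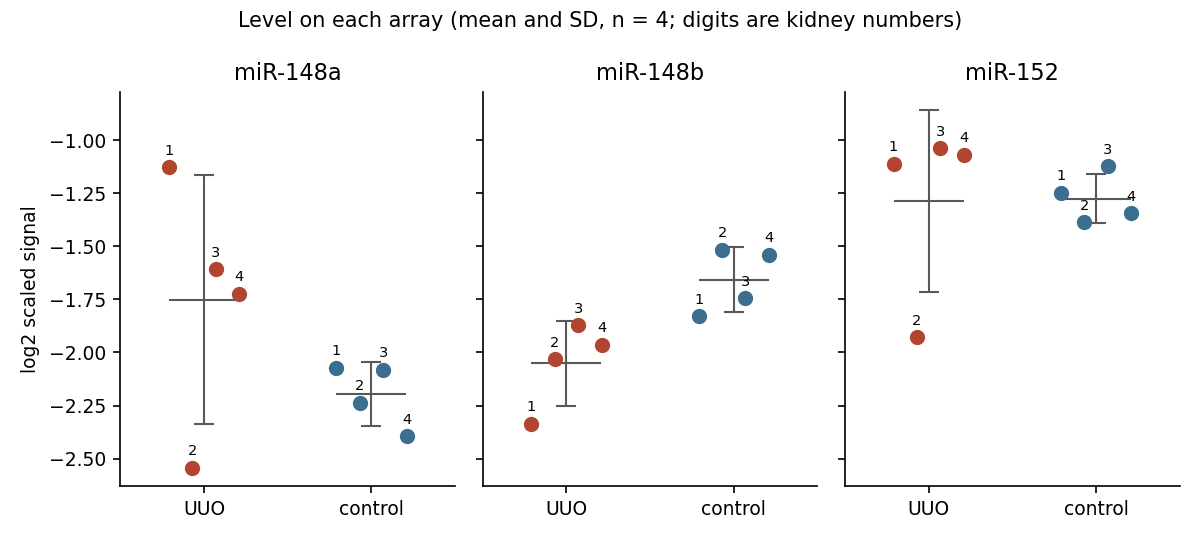
Log2 scaled signal (vertical axis) of each family member on each array, with UUO kidneys left of control kidneys, kidney numbers beside the points, and bars for the mean and SD of 4 arrays. For miR-148b all 4 UUO kidneys lie below all 4 control kidneys, while for miR-148a and miR-152 UUO kidney 2 lies below every control kidney and the other 3 UUO kidneys lie above them.

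miR-148b was the only member whose groups did not overlap on all 8 arrays. Its summed processed signal was 136, 126, 383 and 409 on UUO arrays 1 to 4, against 144, 146, 165 and 200.2 on control arrays 1 to 4. Scaled, the level was 0.198, 0.244, 0.273 and 0.256 in UUO kidneys, against 0.281, 0.350, 0.298 and 0.344 in control kidneys. All 4 UUO kidneys were below all 4 control kidneys, as was so for 47 of the 222 miRNAs tested (21.2%), and for 4 (1.80%) the UUO kidneys were all above. Together these were 51 miRNAs (23.0%) whose groups did not overlap. The mean log2 level was -2.05 ± 0.20 in UUO kidneys and -1.66 ± 0.15 in control kidneys (SD, n = 4 each).

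The log2 difference of miR-148b was -0.39 ± 0.15 (SE), or 1.31-fold lower, with a 95% interval from -0.74 to -0.042. Its unadjusted limma p was 0.0324, under the 0.05 level that 81 of 222 miRNAs (36.5%) passed without adjustment, with 27.9% of the 222 lower. Its limma adjusted p of 0.107 did not pass. Without UUO kidney 2 the difference was -0.40 ± 0.15 (SE, n = 3 and 4, limma adjusted p = 0.0638), so this value did not turn on that array. It was -0.51 within slide row 1 and -0.28 within slide row 2 (limma adjusted p of 0.925 and 0.263). Unscaled, miR-148b was 0.49 ± 0.50 higher (SE, limma adjusted p = 0.477) in UUO kidneys, whose arrays were brighter on the whole. Its unscaled signal was below all control kidneys in UUO kidneys 1 and 2 and above all of them in UUO kidneys 3 and 4. The lower mean level therefore holds only after arrays are scaled or normalized to one another.

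miR-152 had nearly the same mean in both groups. Its summed processed signal was 319, 135, 683 and 760 on UUO arrays 1 to 4, against 216, 160, 253 and 229 on control arrays 1 to 4. The scaled level was 0.463, 0.263, 0.487 and 0.476 in UUO kidneys, against 0.421, 0.382, 0.459 and 0.394 in control kidneys. UUO kidneys 1, 3 and 4 lay close together, just above the control kidneys, and UUO kidney 2 lay well below them. The log2 difference was -0.011 ± 0.22 (SE, n = 4 each, limma adjusted p = 0.970), and its 95% interval from -0.52 to 0.50 leaves room for a change of that size in either direction. Without UUO kidney 2 it was 0.20 ± 0.10 (SE, n = 3 and 4, limma adjusted p = 0.149, 95% interval from -0.045 to 0.45), and it was -0.20 within slide row 1 and 0.18 within slide row 2.

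None of the 3 members was thus called on all 8 arrays, against 33 of the 222 miRNAs tested. Array weights in limma, which gave less weight to arrays that fit their group poorly, put miR-148a at 0.77 (adjusted p = 0.00531) and miR-148b at -0.41 (adjusted p = 0.0338). With those weights 138 of 222 miRNAs (62.2%) were called, 24.3% higher and 37.8% lower.

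The ratio of 2 members on the same array does not depend on a constant that scales the array, so it asks whether members that share a seed changed alike. It is a ratio of signals and not of molecules. The ratio of miR-148a to miR-152 was 0.988, 0.653, 0.673 and 0.635 in UUO kidneys 1 to 4, against 0.565, 0.555, 0.515 and 0.483 in control kidneys 1 to 4. All 4 UUO kidneys were above all 4 control kidneys, UUO kidney 2 included. How many other pairs of tested miRNAs separate the groups in this way was not counted, so this is not shown to be particular to the family. The mean log2 ratio differed by 0.46 ± 0.16 (SE, n = 4 each), or 1.37-fold. The two-sided p by exact permutation was 0.0286, the smallest that 70 assignments allow. Adjusted over the 3 pairs of members the exact p was 0.0857, which did not pass.

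The ratio of miR-148a to miR-148b was 2.31, 0.702, 1.20 and 1.18 in UUO kidneys, against 0.846, 0.607, 0.792 and 0.554 in control kidneys. UUO kidneys 1, 3 and 4 exceeded every control kidney, and UUO kidney 2 lay among the control kidneys. The log2 difference was 0.84 ± 0.38 (SE, n = 4 each), or 1.79-fold; its p by exact permutation was 0.0857, and 0.129 adjusted. The ratio of miR-148b to miR-152 was 0.428, 0.930, 0.561 and 0.538 in UUO kidneys, against 0.668, 0.914, 0.651 and 0.873 in control kidneys. There UUO kidneys 1, 3 and 4 were below all control kidneys and UUO kidney 2 was above them. Its log2 difference was -0.38 ± 0.27 (SE, n = 4 each); its p by exact permutation was 0.200, unchanged by the adjustment.

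When UUO kidney 2 was left out, the log2 differences were 0.51 for miR-148a over miR-152, 1.11 for miR-148a over miR-148b and -0.60 for miR-148b over miR-152. Each then had an exact permutation p of 0.0286, raw and adjusted over the 3 pairs, the smallest that 35 assignments of 3 and 4 arrays allow. Without UUO kidney 1 the 3 differences were 0.31, 0.54 and -0.23, with adjusted exact permutation p-values of 0.0857, 0.214 and 0.400. With normexp background correction, a model that also adds an offset of 50 to every spot, the differences on all 8 arrays were 0.12 for miR-148a over miR-152, 0.45 for miR-148a over miR-148b and -0.33 for miR-148b over miR-152, with adjusted exact permutation p-values of 0.457, 0.214 and 0.214. On 8 arrays, unequal change within the family therefore did not pass the test after adjustment. On the 7 arrays without UUO kidney 2 it did for all 3 pairs, but that array was singled out on its values. The 3 p-values were tied at the smallest possible value, so the adjustment could not raise them. Any 1 of the log2 ratios also follows from the other 2, and pairs of other miRNAs were not tested.

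**Figure D2:**
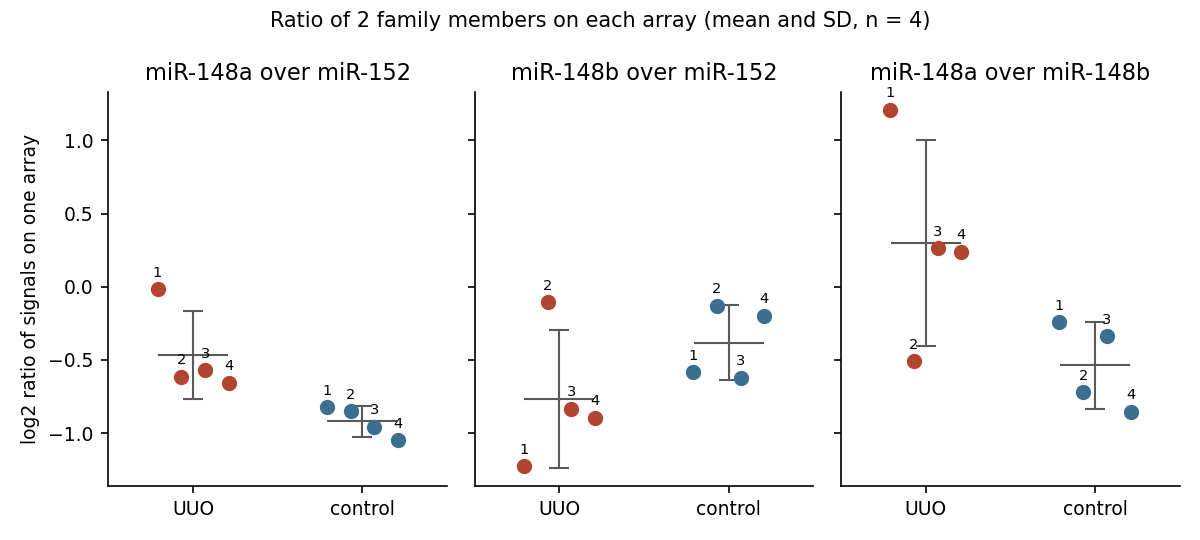
Log2 ratio (vertical axis) of the signals of 2 family members on one array, for each pair, with UUO kidneys left of control kidneys and bars for the mean and SD of 4 arrays. The ratio of miR-148a to miR-152 is higher in every UUO kidney than in any control kidney, and UUO kidney 1 is the highest for both ratios that have miR-148a on top.

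Each member was read by 2 probes of 10 spots each. The probes gave log2 differences of 0.43 and 0.45 for miR-148a and of -0.041 and 0.0081 for miR-152. For miR-148b the bright probe (A_54_P1382) gave -0.38, with all 4 UUO kidneys below all 4 control kidneys. The coefficient of variation between the spots of a probe on one array had a median between 6.43% and 17.6% over the 6 probes, and no member spot was saturated. The dim probe of miR-148b (A_54_P1381) was above background on only 2 of 4 UUO arrays, against 4 of 4 control arrays. UUO kidneys 1 and 2 were under the floor of 0.0213 there, so this probe gives only a bound for them and adds no second measure of the change. For miR-148a both probes placed UUO kidneys 1, 3 and 4 above all control kidneys and UUO kidney 2 below them. For miR-152 one probe (A_54_P2333) had 2 UUO kidneys above all control kidneys and the other (A_54_P2334) had 3, and UUO kidney 2 was the lowest array on both.

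**Figure D3:**
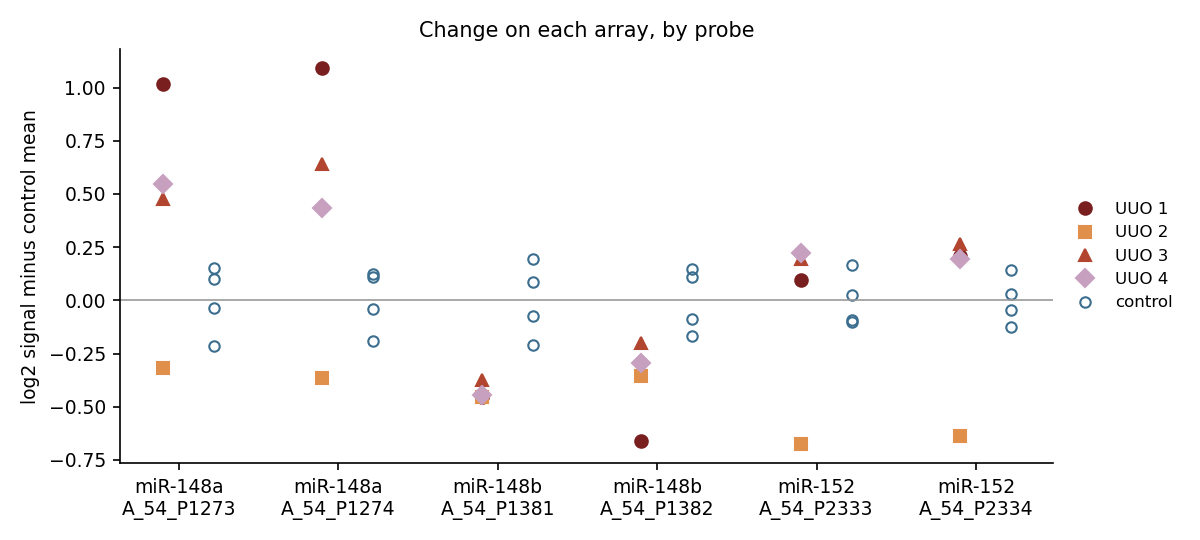
Log2 scaled signal of each of the 6 probes minus its control mean (vertical axis), with filled symbols for the 4 UUO kidneys left of open circles for the 4 control kidneys. Values under the floor are drawn at the floor, which holds UUO kidneys 1 and 2 on the dim miR-148b probe (A_54_P1381). On the bright miR-148b probe all 4 UUO kidneys lie below the control kidneys, and UUO kidney 2 is the lowest array on the probes of miR-148a and miR-152.

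The direction of the members' change depended on what they were set against. The median log2 difference of all 222 miRNAs was -0.14, which moved by 0.88 without scaling and by -0.48 with normexp background correction. Against that median, miR-148a lay 0.59 higher as reported, 0.59 higher without scaling and 0.37 higher with normexp. miR-148b lay -0.25 from the median as reported, -0.30 with quantile normalization and -0.077 with normexp. miR-152 lay 0.13 from it as reported, with 0.088 under quantile normalization and 0.25 under normexp. When not set against that median, miR-148a turned to -0.25 with normexp (limma adjusted p = 0.574), and miR-152 turned to 0.87 without scaling (limma adjusted p = 0.274). With neither scaling nor UUO kidney 2, miR-148a was at 1.88 (limma adjusted p = 0.000241) and miR-152 at 1.38 (limma adjusted p = 0.00695), and 51.8% of the 222 miRNAs were then called, 50.9% higher and 0.901% lower.

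**Figure D4:**
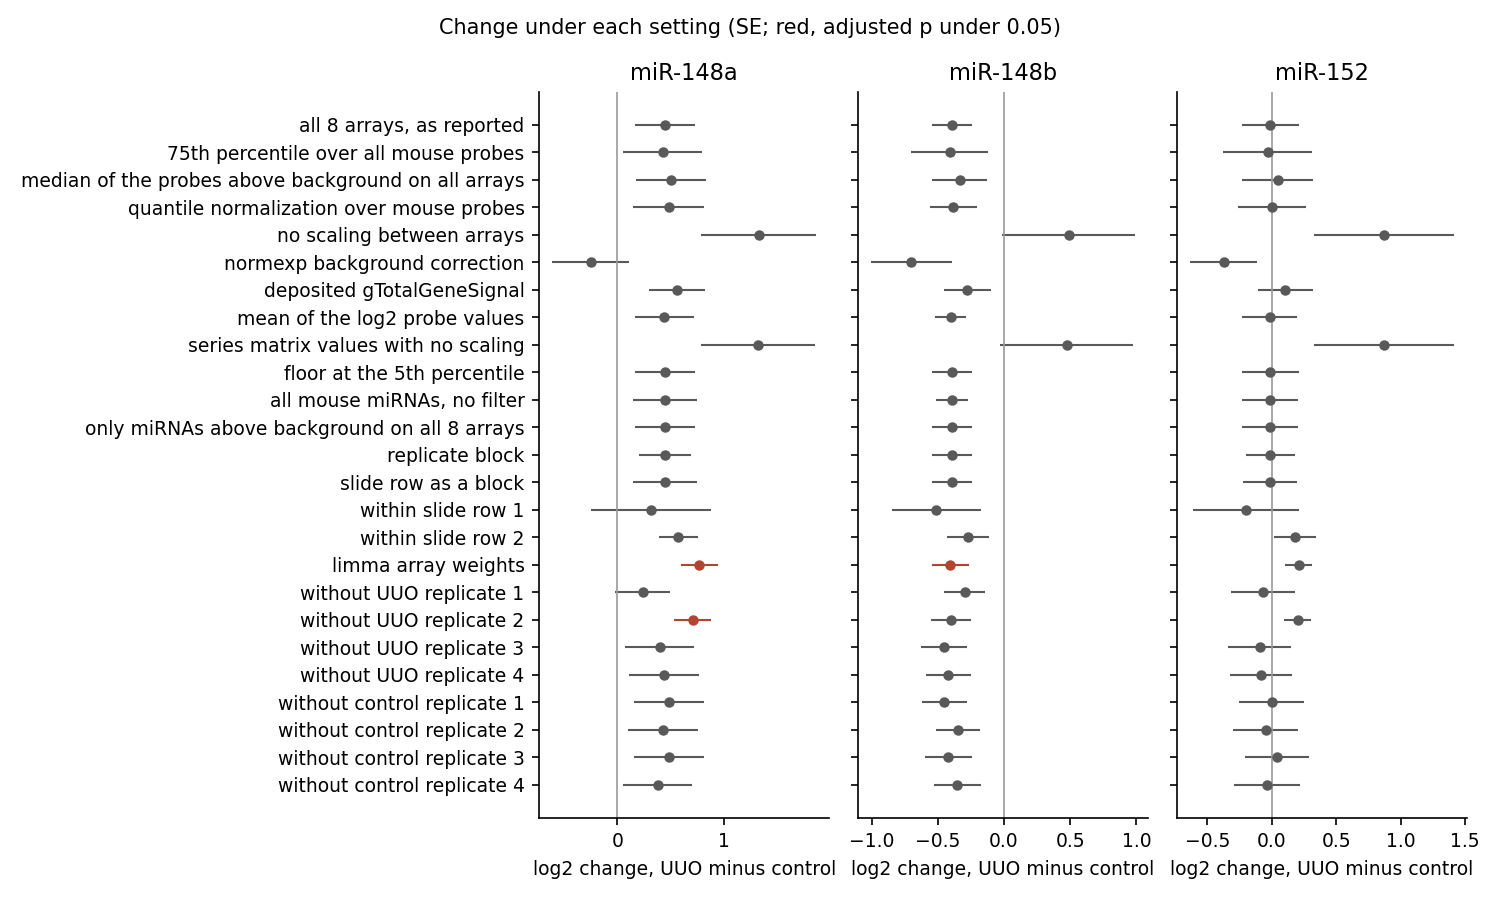
Log2 change of each member, UUO minus control kidneys (horizontal axis), with its SE under each processing setting or with 1 array left out, where red marks an adjusted p under 0.05. miR-148a is called without UUO replicate 2 and with array weights, miR-148b with array weights, and miR-152 under none of the settings drawn.

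The passenger strand miR-148a*, from the other arm of the miR-148a hairpin, was above background on none of the 8 arrays with any of its 4 probes. Its sequence is given because its seed (capitals) is not that of the family.
miR-148a*: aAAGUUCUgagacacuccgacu
Its summed processed signal was below 0 on every array, from -6.12 to -3.01 in UUO kidneys and from -7.90 to -5.29 in control kidneys, so there was only a bound on its level and no change was computed. The other arms of Mir148b and Mir152 have no probe on this array.

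Other miRNAs known to target a DNA methyltransferase messenger RNA made up a list of 10. It held the miR-29 family, miR-143, miR-101a and miR-101b, known for Dnmt3a or Dnmt3b, and miR-185, miR-342-3p, miR-126-3p and miR-140, known for Dnmt1, all largely from human cells. All 10 were tested, 4 fell, 0 rose, and 6 were not called. Among all 222 tested miRNAs 13.5% fell and 1.35% rose. The median log2 difference of the list was -0.45, beside -0.14 over all tested miRNAs, and nothing particular to the list was tested.

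The 4 that fell were miR-29c, miR-101a, miR-185 and miR-29a. On the log2 scale miR-29c changed by -1.09 ± 0.17 and miR-101a by -1.13 ± 0.20, with SE over 4 arrays of each group. miR-185, for which Dnmt1 is the known target, changed by -1.16 ± 0.25 and miR-29a by -0.49 ± 0.13, with limma adjusted p-values from 0.0172 to 0.0335 over the 4. Without UUO kidney 2 the changes were -1.23 for miR-29c, -1.28 for miR-101a, -1.35 for miR-185 and -0.49 for miR-29a. These calls rest on few arrays, since leaving out 1 array put the adjusted p of miR-29c between 0.000365 and 0.0678, that of miR-101a between 0.000708 and 0.0678, that of miR-185 between 0.00188 and 0.0940 and that of miR-29a between 0.0120 and 0.113. Without scaling none of the 4 was called: miR-29c was at -0.21 (limma adjusted p = 0.758), miR-101a at -0.25 (limma adjusted p = 0.705) and miR-185 at -0.28 (limma adjusted p = 0.681), and miR-29a turned positive, like miR-148b, at 0.39 (limma adjusted p = 0.558). miR-126-3p, an endothelial miRNA, differed by -0.30 ± 0.15 (limma adjusted p = 0.201), and by -0.23 without UUO kidney 2 (limma adjusted p = 0.196). miR-342-3p, also a leukocyte marker, differed by 1.46 ± 0.82 (limma adjusted p = 0.234) and was named outside the naming rule after its values were seen, as the list's highest value. Without UUO kidney 2, 7 members of the list fell, where 30.2% of all tested miRNAs did, and 1 rose, where 20.7% did. The one that rose was miR-342-3p, at 2.34 ± 0.35 (SE, n = 3 and 4, limma adjusted p = 0.00191).

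Among UUO kidneys, kidney 2 had the lowest fibroblast and leukocyte marker sums and the highest tubule and erythroid marker sums. In that kidney miR-148a and miR-152, but not miR-148b, were the lowest of all 8 arrays. How many of all tested miRNAs were lowest there was not counted. Fibroblast markers (miR-199a-3p, miR-199a-5p and miR-214, 3 of 3 above background on all arrays) summed to a scaled signal of 2.50 in UUO kidney 2 and of 8.66 to 13.1 in the other UUO kidneys, against 3.09 to 4.21 in control kidneys. Leukocyte markers (5 of 7 above background on all arrays) summed to 1.88 in UUO kidney 2 and to 6.84 to 7.69 in the others, against 1.98 to 2.71 in control kidneys. UUO kidney 2 was thus below every control kidney for both marker sums, as it was for miR-148a and miR-152. Single markers differed in this. The lowest UUO kidney was below every control kidney for miR-199a-3p, miR-199a-5p, miR-223, miR-155 and miR-342-3p. For miR-214, miR-142-3p, miR-142-5p, miR-150 and miR-146a no UUO kidney was below every control kidney. Tubule markers summed to 25.1 to 36.0 in UUO kidneys, with UUO kidney 2 the highest, against 45.9 to 49.1 in control kidneys. Every UUO kidney was lower than every control kidney, as for 47 of the 222 tested miRNAs (21.2%), miR-148b among them. Among UUO kidneys, though, the scaled level of miR-148b was highest in kidney 3, at 0.273, and was 0.244 in kidney 2. Among the tubule markers, miR-192, miR-194 and miR-30a were called lower on all 8 arrays, as were 13.5% of all tested miRNAs. Not called were miR-10b at -0.48, miR-204 at -0.12 and miR-10a at 0.0043 (limma adjusted p of 0.0701, 0.755 and 0.980). Erythroid markers ranged from 5.15 to 24.4 in UUO kidneys and from 5.16 to 44.6 in control kidneys. The part of these cells in the members' levels was not tested.

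The tested miRNAs whose profile was most like each member differed between the members. Likeness was the root mean square difference between log2 levels over the 8 arrays, each profile centred on its own mean, among 219 other miRNAs. Nearest to miR-148a were miR-25 at 0.126, miR-93 at 0.191 and miR-16 at 0.193, where the median miRNA was at 0.587. miR-152 was at 0.300 from miR-148a and miR-148b was at 0.628, farther than that median. Nearest to miR-148b were miR-29a at 0.134, miR-140* at 0.149 and miR-324-5p at 0.162, with a median of 0.485 and with miR-152 at 0.380. Nearest to miR-152 were miR-532-3p at 0.104, miR-503 at 0.116 and miR-125b-5p at 0.131, with a median of 0.520. All these profiles share the same 8 arrays and their scaling. Of these 9 neighbours only miR-29a was called on all 8 arrays.

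The neighbours of miR-148a had log2 differences of 0.41 ± 0.24 for miR-25, 0.36 ± 0.29 for miR-93 and 0.16 ± 0.27 for miR-16 (SE, n = 4 each). miR-140* was at -0.36 ± 0.13 and miR-324-5p at -0.22 ± 0.13. miR-532-3p was at 0.020 ± 0.19, miR-503 at 0.059 ± 0.18 and miR-125b-5p at 0.14 ± 0.22. The limma adjusted p-values of these 8 were between 0.0894 and 0.947. Without UUO kidney 2, 4 of the 8 were called, as were 50.9% of all tested miRNAs. miR-25 was then at 0.65 (limma adjusted p = 0.00354), miR-93 at 0.67 (limma adjusted p = 0.00168), miR-125b-5p at 0.36 (limma adjusted p = 0.0385) and miR-140* at -0.34 (limma adjusted p = 0.0451). The others were not called there, with miR-16 at 0.42 (limma adjusted p = 0.0505), miR-324-5p at -0.17, miR-532-3p at 0.19 and miR-503 at 0.22. miR-29a was at -0.49 (limma adjusted p = 0.0120).

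**Figure D5:**
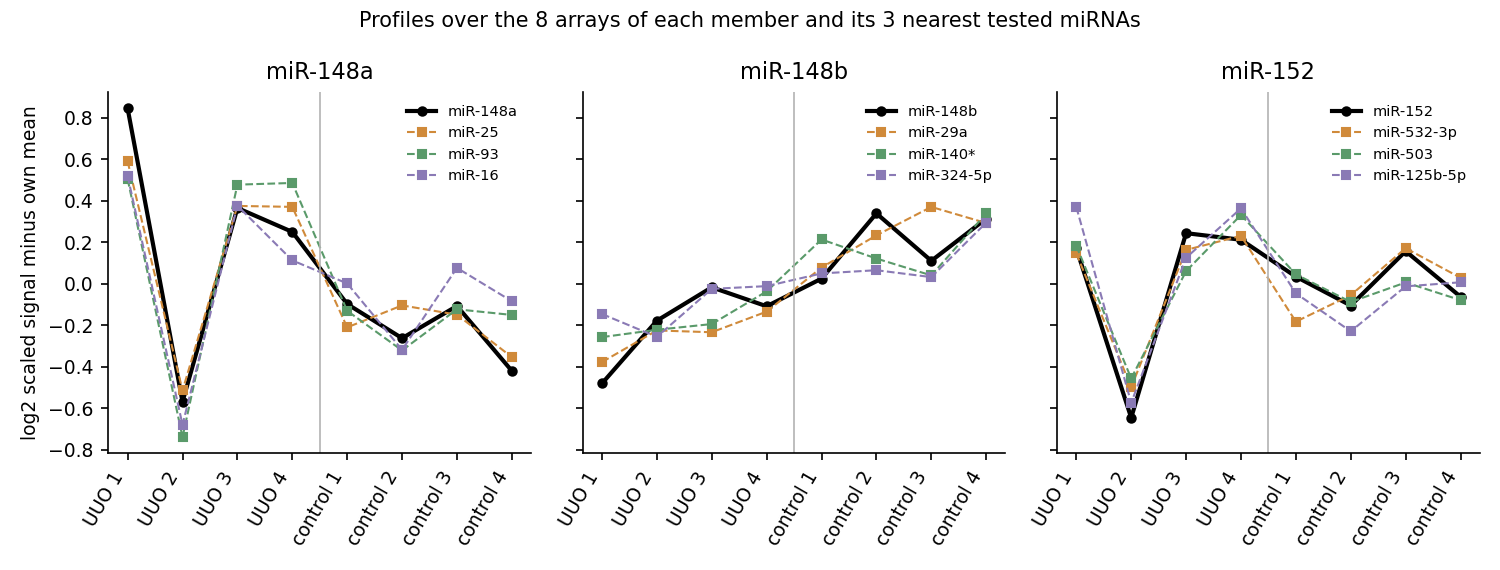
Log2 scaled signal minus the miRNA's own mean (vertical axis) over the 4 UUO and then the 4 control arrays, for each member (black) and its 3 nearest tested miRNAs (dashed). UUO kidney 2 is the lowest array for miR-148a and miR-152 and their neighbours, and UUO kidney 1 is the lowest for miR-148b.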

How the data were processed

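The authors' deposited values were spot intensities of 8 arrays on 1 slide with 1 scan, made with Agilent's Feature Extraction software. The submitters' processing notes name version 10.1.1 of it, but the headers of the deposited files name 10.7.3.1. The other deposited values used were median signals of spots and of their background, a total gene signal, and marks of 0 or 1 per spot (outlier, well above background, saturated), per the file headers. The series matrix intensity values equalled the processed signals, so they were unscaled and uncentred.

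Outlier spots were left out, spots averaged per probe, and each array's signals divided by the 75th percentile among 371 probes detected on every array. Probes were summed per miRNA, a floor of 0.0213 was set and log2 taken. A probe was above background when over 50% of its spots were marked. The 222 of 611 mouse miRNAs that all 4 arrays of a group, either one, detected were tested with limma 3.58.1 in R 4.3.3, two-sided, Benjamini-Hochberg adjusted, with calls under 0.05. Ratios of members were tested by exact permutation. The fit was tested on simulated data with independent values for each miRNA and array. They held no array that deviates as UUO kidney 2 did, so that test does not cover such an array. Array number and signal limit precision. The files have no mean spot signal, so normexp used median spot signals. Python 3.11.15, pandas 2.3.3 and matplotlib 3.10.9 made tables and figures.

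Named miRNAs were the 3 members, their other strands, up to 5 of the DNA methyltransferase list (called first, then brightest) and 3 nearest profiles per member. Members and lists were chosen with earlier results of these data known. Labels do not say that kidneys of a group came from separate mice, so p-values measure only the spread between these samples.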

Additional observations from a re-analysis of the deposited data

Results flagged for a closer look

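Some values stood far from the other arrays of their group, with a gap to the nearest array that, as a share of the group's range, exceeded Dixon's 95% critical value. In all 38 groups of 4 arrays were looked at and 6 stood out, where chance gives about 1 in 20 for independent groups. These groups were not independent, since they share arrays, hold ratios of the same members and hold neighbours picked for profiles like a member's. The count is therefore no evidence of an excess. The level of miR-152 in UUO kidney 2 had a gap of 0.917 of the range of UUO kidneys. In the same kidney the gap was 0.978 for miR-93 and 0.884 for miR-532-3p, neighbours of miR-148a and miR-152. The ratio of miR-148a to miR-152 in UUO kidney 1 had a gap of 0.869, and without that kidney the log2 difference of the ratio was 0.31 in place of 0.46. Among control kidneys, miR-93 in kidney 2 had a gap of 0.863 and miR-324-5p in kidney 4 one of 0.873.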

How the results depend on the processing

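With all 8 arrays, miR-148a was higher except with normexp, at -0.25, or -0.18 with normexp and without UUO kidney 2. It passed the test at 0.77 with array weights, at 1.88 unscaled without UUO kidney 2, and without UUO kidney 2 alone, where leaving out 1 array gave 0.24 to 0.71. miR-148b turned positive only without scaling, at 0.49, 0.47 from the series matrix and 0.77 without UUO kidney 2, and passed at -0.41 with array weights; leaving out 1 array gave -0.45 to -0.30. miR-152 turned positive at 0.046 with median scaling, 0.0025 with quantile normalization, 0.10 with the deposited total gene signal, 0.18 within slide row 2, 0.21 with array weights, 0.87 unscaled, 0.87 from the series matrix and, passing the test, 1.38 unscaled without UUO kidney 2, and leaving out 1 array gave -0.094 to 0.20. The settings that combine another scaling with leaving out UUO kidney 2, and the ratios from the brighter probe of each member, were chosen after seeing the data.

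Unscaled, from the series matrix and unscaled without UUO kidney 2, miR-29a was at 0.39, 0.38 and 0.68, miR-126-3p at 0.58, 0.58 and 0.95, miR-140* at 0.52, 0.52 and 0.83, and miR-324-5p at 0.66, 0.66 and 1.00. miR-532-3p turned to -0.076 with quantile normalization, -1.10 with normexp, -1.30 with normexp without UUO kidney 2, -0.0042 with the mean of log2 probes and -0.058 within slide row 1, and leaving out 1 array gave -0.054 to 0.19. miR-503 turned to -0.0050, -0.98 and -1.13 under the first 3 of these and -0.12 within slide row 1, and leaving out 1 array gave -0.042 to 0.22.

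The 33 calls became 13 with median scaling, 3 each with quantile normalization, no scaling, the series matrix and the deposited total gene signal, 17 with no filter, 69 within slide row 2, 138 with array weights and 115 unscaled without UUO kidney 2. limma made 0 calls with the percentile over all mouse probes, with normexp and within slide row 1, where 56, 54 and 1 miRNAs had an unadjusted p under 0.05. Leaving out 1 array gave 0 to 113 calls, with 113 without UUO kidney 2, 14 without UUO kidney 4, 20 without control kidney 2 and 0 without UUO kidney 1 or 3 or control kidney 1, 3 or 4, where limma's unadjusted count was 57, 55, 67, 65 and 54 in that order. The cause of these changes was not tested.

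The ratios kept their direction under every alternative run and passed only without UUO kidney 2. With normexp they shrank to 0.12 for miR-148a over miR-152, 0.45 for miR-148a over miR-148b and -0.33 for miR-148b over miR-152. Leaving out 1 array gave 0.31 to 0.52 for miR-148a over miR-152, -0.60 to -0.23 for miR-148b over miR-152 and 0.54 to 1.11 for miR-148a over miR-148b.

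Replicate numbers are shared by the groups, but arrays of the same number did not consistently deviate together. Their correlations were -0.35, 0.22, 0.62 and 0.015, with 2 of 4 pairs over 0.1, and 1 of 4 UUO arrays correlated best with its own number. With number as a replicate block limma made 0 calls (67 at an unadjusted p under 0.05), with adjusted p-values of 0.241 for miR-148a, 0.156 for miR-148b and 0.965 for miR-152. Precision is limited by 4 arrays a group. For miR-148b the dim probe near background adds no second measure of the change.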
